A study of Rattus norvegicus with 5 samples.

Results

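The 9 S100 genes S100a1, S100a4, S100a6, S100a8, S100a9, S100a10, S100a11, S100a13 and S100b were followed through the zones of the mandibular condylar cartilage (MCC) of the rat and through femoral condylar cartilage (FCC). Members were taken as every probe set whose single gene symbol in the platform annotation was one of these names. This gave 9 probe sets, 1 for each gene, of the 31042 probe sets on the array other than controls, which cover 14217 named genes. Laser-captured cells came from wild type Sprague-Dawley rats, all male and 5 weeks old, with no treatment named, as the fibrous zone (FZ), the proliferative zone (PZ), the mature zone (MZ) and the hypertrophic zone (HZ) of the MCC, with chondrocytes of the FCC as the control tissue. The cells of many 7 µm sections were pooled for each group (30 sections according to the labels, more for FZ according to the methods), and the methods place the FCC cells in its middle and deep zones. Each of the 5 groups is 1 array. Differences between them thus have no replicates behind them, nothing could be tested and no p-value is printed.

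S100 proteins are small calcium-binding proteins with EF-hand motifs that mostly work as dimers. Inside the cell they bind target proteins such as annexins and myosins when calcium is high, and several of them are also released and act on receptors such as Ager (RAGE) and Tlr4. S100a1 and S100b are markers of chondrocytes, in which SOX factors are known to drive them. S100a8 and S100a9 form calprotectin, a complex that is very abundant in the cytosol of neutrophils. S100a4, S100a6, S100a10, S100a11 and S100a13 are made by many cell types, among them fibroblasts.

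The deposited values are on the log2 scale, relative to the median of the same probe set over the 5 arrays. A value of 0 is therefore that median and no absence of signal, levels cannot be compared between genes, and only differences between arrays have a meaning. A difference was counted from 2 (4-fold) and, as a lower threshold, from 1 (2-fold). The probe sets of one gene gave the only measure of error at hand. Their spread does not hold the variation between captures, amplifications or animals, which all probe sets of an array share. Over 4525 genes with more than 1 probe set the median SD between probe sets ran from 0.12 for MZ minus HZ to 0.36 for PZ minus FCC, and differences below this size were not read as an order of zones. The PZ array stood apart in its control probe sets. The 3' probe set of GAPDH lay at -1.46 in PZ and between -0.27 and 0.70 on the other arrays, and its 5' minus 3' difference was 1.36 in PZ and lay between -0.21 and 0.27 in the other 4 arrays. For beta-actin the same difference was 1.24 in FCC and lay between -0.24 and 0.14 in the MCC zones. The part of RNA quality in the values of the members was not tested.

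The members varied more between arrays than most probe sets. Their range over the 5 arrays had a median of 2.40, against 0.58 for all probe sets. S100b had the widest range, 4.36, which was wider than that of 99.5% of all probe sets. S100a9 spanned 3.03, S100a8 3.02, S100a6 2.48, S100a11 2.40, S100a13 1.91, S100a4 1.57 and S100a10 1.11. The narrowest range, 0.88, belonged to S100a1, which still exceeded 67.6% of all probe sets. S100b was highest in FCC, the neutrophil members were highest in MZ and HZ, and all 5 widely expressed members were highest in FZ. S100a1 was highest in FZ too, but by 0.18 over FCC, within the spread between probe sets (0.26).

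**Figure D1:**
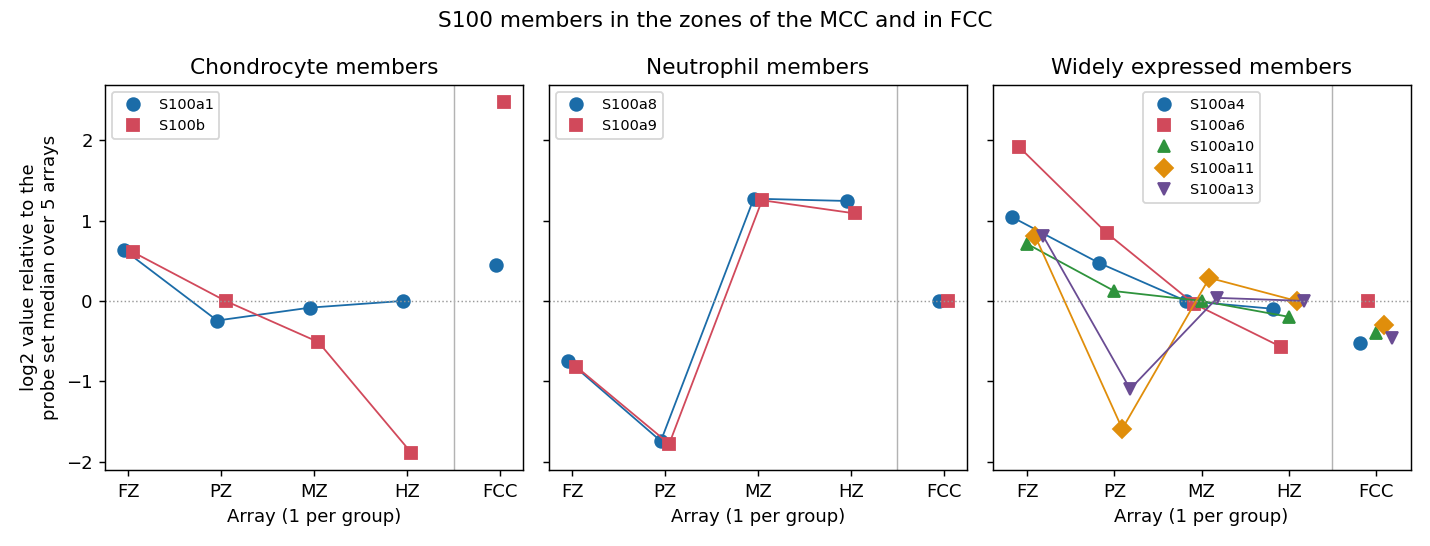
Values of the 9 members on the 5 arrays, as log2 relative to the median of each probe set, in panels for the chondrocyte, neutrophil and widely expressed members, with 1 array per group and lines joining the MCC zones only. S100b lies at 2.47 in FCC and at -1.89 in HZ, S100a8 and S100a9 lie above 1 in MZ and HZ alone, and all widely expressed members peak in FZ.

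RefSeq promoter windows (GRCr8, 250 bases before to 50 after the gene start) were found for 6 of the 9 members, and none was found for S100a1, S100a8 and S100a10. The windows of S100b, S100a9 and S100a6 are shown because these are the members with an entry that varied most over the arrays, one in each class. They lie at chr20:12381032-12381331 on the minus strand (S100b), at chr2:178490573-178490872 on the minus strand (S100a9) and at chr2:178398287-178398586 on the plus strand (S100a6). Capitals mark matches on either strand to a TATA box (TATAAA), the core of SOX sites (ACAAT, or ATTGT on the opposite strand) or a site for C/EBP factors (TTNNGCAA). The 3 motifs shared no base in these windows.
S100b: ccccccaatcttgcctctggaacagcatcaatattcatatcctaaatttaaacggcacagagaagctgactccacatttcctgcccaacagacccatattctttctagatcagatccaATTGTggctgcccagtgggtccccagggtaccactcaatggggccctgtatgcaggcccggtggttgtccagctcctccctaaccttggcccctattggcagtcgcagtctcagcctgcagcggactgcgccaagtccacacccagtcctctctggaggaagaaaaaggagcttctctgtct
S100a9: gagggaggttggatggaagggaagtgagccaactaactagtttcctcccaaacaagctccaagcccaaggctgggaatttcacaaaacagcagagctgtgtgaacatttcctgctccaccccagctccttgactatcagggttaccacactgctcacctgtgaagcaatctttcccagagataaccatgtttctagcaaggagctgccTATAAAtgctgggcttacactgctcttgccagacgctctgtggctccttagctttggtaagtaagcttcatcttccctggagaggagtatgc
S100a6: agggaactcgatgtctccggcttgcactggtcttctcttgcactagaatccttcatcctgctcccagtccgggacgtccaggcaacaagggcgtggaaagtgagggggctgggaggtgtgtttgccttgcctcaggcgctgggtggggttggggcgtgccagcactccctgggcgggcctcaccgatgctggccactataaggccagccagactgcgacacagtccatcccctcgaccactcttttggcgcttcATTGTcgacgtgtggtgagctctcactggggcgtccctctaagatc

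The S100b window held 1 SOX core, 132 bases before the start, and no TATA box. The S100a9 window held a TATA box 42 bases before the start and neither of the other motifs. The S100a6 window held 1 SOX core, at base 5 after the start. Of the members not shown, S100a4 had a TATA box 31 bases before the start and SOX cores 167 and 17 bases before it, whereas S100a11 and S100a13 held no match. Of all 33469 windows of this length, 33.7% held the SOX core, 14.2% the TATA box and 10.6% the C/EBP letters. A match is a stretch of letters and not evidence of binding.

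S100b, which in cartilage marks chondrocytes, was lower in every MCC zone than in FCC. Its values were 0.61 in FZ and 0.00 in PZ, with -0.51 in MZ and -1.89 in HZ, against 2.47 in FCC. Within the MCC the values stepped down from the surface to the deepest zone, with steps of 0.61 (FZ minus PZ), 0.51 (PZ minus MZ) and 1.38 (MZ minus HZ). Each step was larger than the median SD between probe sets of a gene for that comparison, which was 0.30, 0.31 and 0.12. The 90th percentile of this SD over genes was 0.79, 0.84 and 0.33, so that only MZ minus HZ exceeded it. When the arrays were shifted to equal hybridization controls (spiked transcripts added to every array), PZ minus MZ became 0.05, so that the order of these 2 zones was not kept, whereas FZ stayed the highest and HZ the lowest of the MCC zones.

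Against FCC, S100b was 3.63-fold lower in FZ, 5.54-fold lower in PZ, 7.91-fold lower in MZ and 20.5-fold lower in HZ. The HZ difference, -4.36 on the log2 scale, ranked 101st from the lowest of 31042 probe sets. S100b was the single member to differ from FCC by at least 2, which it did in PZ, MZ and HZ but not in FZ, where the difference was -1.86. At that threshold 2.13% of all probe sets were counted for FZ minus FCC, 2.43% for PZ minus FCC, 2.47% for MZ minus FCC and 3.55% for HZ minus FCC. With 1 member of 9 in each of the last 3 comparisons, these counts rest on S100b alone.

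S100a1, the other chondrocyte member, did not share this course. It was at 0.63 in FZ and -0.24 in PZ, with -0.08 in MZ and 0.00 in HZ, against 0.45 in FCC. FZ and FCC were thus the 2 higher arrays, and the other 3 lay within 0.24 of each other, less than the median SD between probe sets for PZ minus HZ (0.33). After the shift by hybridization controls MZ minus FCC was -0.01 and HZ minus FCC 0.07, so that FCC was then no higher than these 2 zones. Its largest difference from FCC was -0.70, in PZ. Thus the 2 chondrocyte members lay 0.02 apart in FZ relative to their own medians and 1.89 apart in HZ and 2.02 apart in FCC.

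Matrix genes of hyaline cartilage were set beside S100b and S100a1. Of 20 measured genes of this list, 18 were highest in FCC, as S100b was, and so were 3523 of all 14217 named genes. The list was chosen with earlier results of these data known. Clec3a, Mia, Col9a1, Chad, Prelp and Scrg1 are among the genes that the study reported from the same arrays as far lower in MCC zones than in FCC. This share is therefore a description. The order of S100b over the arrays, FCC, then FZ, PZ, MZ and HZ, recurred in 4 of the 20 (20%), and in 227 of all 14217 named genes (1.60%). This order was looked for after the values had been seen, and the share is a description. The 4 genes were Acan (aggrecan, the large proteoglycan of cartilage), Ucma (a matrix protein of cartilage), and Fmod and Prelp, leucine-rich proteoglycans that bind collagen. Acan lay at 0.41 in FZ and 0.00 in PZ, with -0.44 in MZ and -1.87 in HZ, against 0.86 in FCC. Prelp lay at 1.54 in FZ and 0.00 in PZ, with -1.17 in MZ and -2.73 in HZ, against 3.67 in FCC. The order is that of the deposited values, and the shift by hybridization controls was not applied to these 4 genes. That shift raised the median of FZ minus FCC over all probe sets from 0.00 to 0.65. It lowered that of PZ minus MZ from 0.02 to -0.44. FZ minus FCC was -0.45 for Acan and -0.40 for Fmod. PZ minus MZ was 0.44 for Acan and 0.36 for Ucma. For Prelp these differences were larger, at -2.13 and 1.17. A further 12 genes of the list, with Col2a1 and the 3 chains of collagen IX among them, were lowest in FZ instead, as were 2198 of all named genes. Col9a1 was at -4.53 in FZ and 0.00 in PZ, against 2.13 in FCC, whereas S100b in FZ lay 0.61 above its value in PZ.

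**Figure D2:**
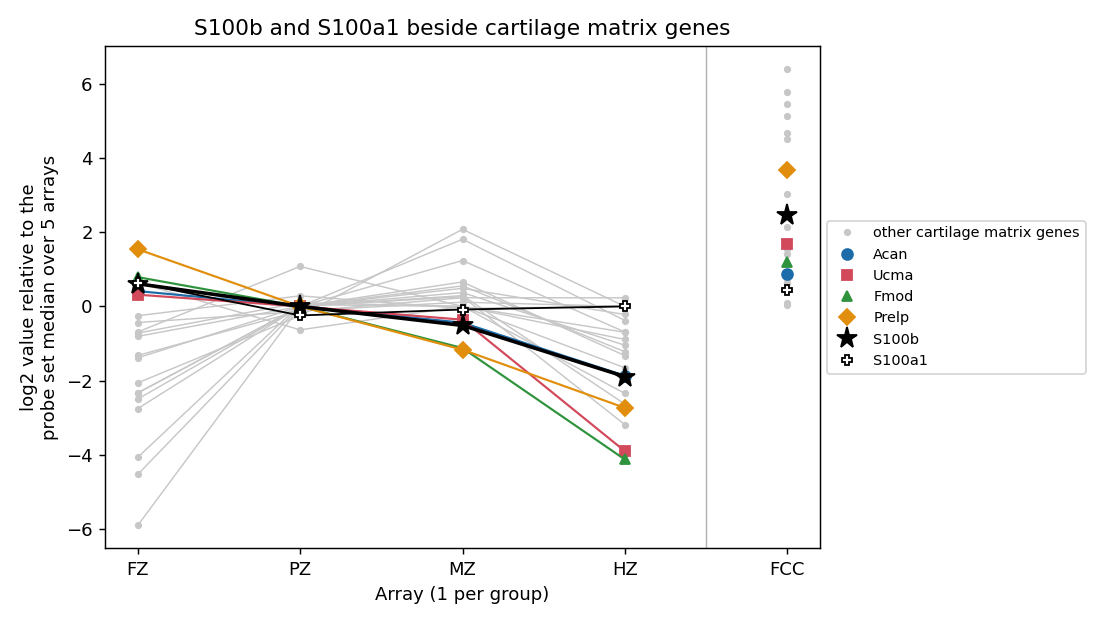
S100b and S100a1 beside 20 matrix genes of hyaline cartilage on the 5 arrays, as log2 relative to the median of each probe set, with lines joining the MCC zones. Acan, Ucma, Fmod and Prelp (coloured) keep the order of S100b in the deposited values, whereas 12 of the grey genes are lowest in FZ.

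Genes of other cells that make S100b were measured as well. Of 9 genes of Schwann cells and melanocytes, none differed by 1 or more between superficial and deep zones, and the median was 0.12. The transcription factor Sox10 ran from -0.16 to 0.17 over the 5 arrays, and Mbp, a myelin protein, spanned less than 0.5. Pmp22, a myelin protein that other cells make too, was at 0.25 in FZ and 0.00 in PZ, with -0.60 in MZ and -0.88 in HZ, against 0.83 in FCC. It was highest in FCC and lowest in HZ, as S100b was, but FZ minus PZ was within the spread between probe sets. Ngfr, a neurotrophin receptor, was at -0.07 in FZ and 0.23 in PZ, with 0.00 in MZ and -0.02 in HZ, against 0.62 in FCC, and Prx, a myelin protein, was at -0.30 in FZ and 0.13 in PZ, with 0.00 in MZ and -0.26 in HZ, against 0.62 in FCC. Against FCC the median of the 9 genes was -0.18 in FZ and -0.06 in PZ, with -0.33 in MZ and -0.25 in HZ, and Pmp22 in MZ and HZ was the single gene to differ by 1 or more. Pmel, of melanocytes, was 0.99 higher in the superficial than in the deep zones with its highest value in PZ (1.01), and Egr2 was 0.35 lower in the superficial zones. Mlana, of melanocytes, was lowest in FCC, at 0.04 in FZ and -0.24 in PZ, with 0.00 in MZ and 0.39 in HZ, against -0.60 in FCC. Dct was at 0.39 in PZ and -0.10 in FCC. Adipocytes make S100b as well. Of their 7 measured genes none was lower than in FCC by 1 or more in any MCC zone, with medians against FCC of -0.59 in FZ and -0.40 in PZ, with -0.28 in MZ and -0.36 in HZ. Adipoq, their hormone adiponectin, lay between -0.12 and 0.00 in the MCC zones and at 0.67 in FCC, and Plin1, Cidec, Fabp4 and Plin4 were highest in FCC as well. Lep was at 0.00 in FCC, and Cfd (adipsin) ran the other way, at 1.21 in MZ and 1.74 in HZ against -1.24 in FCC. The part of Schwann cells, melanocytes and adipocytes in the values of S100b was not tested. In bulk cells of this kind fewer cells of a type and less RNA per cell cannot be told apart.

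Of the SOX factors that drive chondrocyte genes, Sox6 was measured and Sox5 and Sox9 were not analysed here. Sox6 lay at 0.08 in FZ and 0.96 in PZ, with -0.26 in MZ and -0.32 in HZ, against -0.06 in FCC. It was highest in PZ, where S100b was at its median, and it lay close to its median in FCC, where S100b was highest.

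S100a8 and S100a9, the calprotectin subunits, were lower in the superficial than in the deep zones of the MCC, with FCC between them. S100a8 was at -0.74 in FZ and -1.75 in PZ, against 1.27 in MZ and 1.24 in HZ, and at 0.00 in FCC. S100a9 was at -0.82 in FZ and -1.78 in PZ, against 1.25 in MZ and 1.09 in HZ, and at 0.00 in FCC. For both genes the 2 superficial arrays lay below FCC and the 2 deep arrays above it. After the shift by hybridization controls FZ minus FCC was -0.10 for S100a8 and -0.17 for S100a9, within the spread between probe sets (0.26), so that of the superficial zones PZ alone was then clearly below FCC. FZ exceeded PZ by 1.001 for S100a8 and by 0.96 for S100a9. MZ and HZ differed by 0.03 for S100a8, which is within the spread between probe sets (0.12), and by 0.16 for S100a9.

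The mean of FZ and PZ minus the mean of MZ and HZ was -2.50 for S100a8 (5.67-fold lower in the superficial zones) and -2.47 for S100a9 (5.54-fold lower). These were the 14th and 15th lowest of 31042 probe sets. They were the 2 of 9 members counted in this comparison, which required a difference of at least 2 with both superficial zones on one side of both deep zones, and 0.773% of all probe sets were counted by the same rule. With FZ alone in place of the mean of FZ and PZ the differences were -2.003 for S100a8 and -1.991 for S100a9, so that S100a9 no longer reached 2. From a difference of at least 1, 4 of 9 members were counted (S100a6, S100a8, S100a9 and S100b), against 5.04% of all probe sets.

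Between single zones the neutrophil members made 6 of the 9 counts. For PZ minus MZ both were counted, at -3.02 for S100a8 and -3.03 for S100a9, the 24th and 22nd lowest of all probe sets, and 1.11% of all probe sets were counted. For PZ minus HZ both were counted as well, at -2.99 and -2.87, against a background of 1.74%. For FZ minus MZ both were counted at -2.02 and -2.07, against a background of 0.854%. When the arrays were shifted to equal hybridization controls these FZ minus MZ differences became -1.89 and -1.95 and were no longer counted, so they lie at the threshold rather than beyond it. For FZ minus HZ they were -1.99 and -1.91 and were not counted.

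Against FCC the neutrophil members differed by 1 or more in 3 of the 4 zones. S100a8 was 3.35-fold lower in PZ, and it was 2.42-fold higher in MZ and 2.37-fold higher in HZ. In FZ it was 1.67-fold lower. At the threshold of 1, 3 of 9 members were counted in MZ (S100a8, S100a9 and S100b) and the same 3 in HZ, against 11.3% and 13.6% of all probe sets.

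Blood cell genes were measured beside the neutrophil members. Of 14 measured genes of neutrophils and their granules, S100 genes left out, 3 were lower in the superficial zones by at least 1 and none was higher by this size, with a median of -0.45. Of all named genes 3.78% were lower and 2.24% higher by this size. The mean over the list was -0.08 in FZ and -0.67 in PZ, against 0.51 in MZ and 0.04 in HZ, and 0.03 in FCC. Lcn2 (lipocalin 2 of the specific granules) was 2.29 lower in the superficial zones and Camp (cathelicidin) 2.22 lower. Both lay at 0.00 in FCC, as S100a8 and S100a9 did. Mmp9 (gelatinase B) was 1.47 lower in the superficial zones but was lowest in FCC, at -1.09.

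Other neutrophil genes differed from this pattern. The defensin genes Np4, RatNP-3b and Defa5, whose products fill the primary granules, were high in MZ but not in HZ. Np4 was at 0.00 in FZ and -2.07 in PZ, with 1.08 in MZ and -1.32 in HZ, against 0.52 in FCC. A further 6 of the 14 genes (Mmp8, Csf3r, Cebpe, Gfi1, Itgam and Ncf1) spanned less than 0.5 over all 5 arrays, and Mmp8 was listed at 0.00 in each of them. Values of this kind say that the signal did not differ between arrays and not that it was absent. Another 9 genes of the list, including Mpo and Elane, were not analysed here.

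In the deposited values genes of red cell precursors shared the place of FCC with the neutrophil members. For S100a8 and S100a9 FCC lay between the superficial and the deep zones. The same held for 9 of 10 erythroid genes, 3 of 14 neutrophil genes, 1 of 14 pan-leukocyte genes (Cd52) and 0 of 14 macrophage genes. It held for 437 of all 14217 named genes. These counts take the order without its size. MZ minus FCC was 0.01 for Hbb, and PZ minus FCC was -0.04 for Ahsp. FZ minus FCC lay between -0.97 and -0.15 for the erythroid genes, with a median of -0.55. The shift by hybridization controls, which was not applied to these counts, raised the median of all probe sets for this difference from 0.00 to 0.65. The erythroid list as a whole had means of -0.54 in FZ and -0.76 in PZ, against 0.79 in MZ and 1.498 in HZ, and 0.01 in FCC. Alas2, the first enzyme of erythroid haem synthesis, was at -0.97 in FZ and -2.52 in PZ, with 0.44 in MZ and 0.94 in HZ, against 0.00 in FCC. Car1 was 3.23 and Klf1 2.62 lower in the superficial zones, and the study lists both among its top genes of HZ from the same arrays.

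Pan-leukocyte genes were lower in the superficial zones too, 9 of 14 by at least 1 with a median of -1.39, yet their list mean was lowest in FCC (-1.004), at -0.13 in FZ and -0.71 in PZ and at 0.79 in MZ and 1.08 in HZ. MZ exceeded FCC by a median of 2.02 for these genes and by 1.27 for S100a8 and 1.25 for S100a9. Plek was 2.29, Fcer1g 2.12 and Cd53 1.96 lower in the superficial zones. Of 14 macrophage genes 4 were lower there by at least 1, with a median of -0.72, and 9 of the 14 were lowest in FCC, among them Csf1r (-1.44 in FCC), Cd68 (-1.52 in FCC) and C1qc (-0.99 in FCC). Endothelial genes had a median of -1.10, with Cldn5 1.60, Tie1 1.22 and Vwf 1.17 lower in the superficial zones, and genes of dendritic cells had one of -0.73, with Itgax 1.44, Cd74 1.15 and Cd83 0.73 lower. Over all named genes the median of this difference was 0.00, and 3.78% were lower and 2.24% higher in the superficial zones by at least 1. FCC was the lowest array for 4091 of all 14217 named genes. The part of these cells in the values of S100a8 and S100a9 was not tested.

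**Figure D3:**
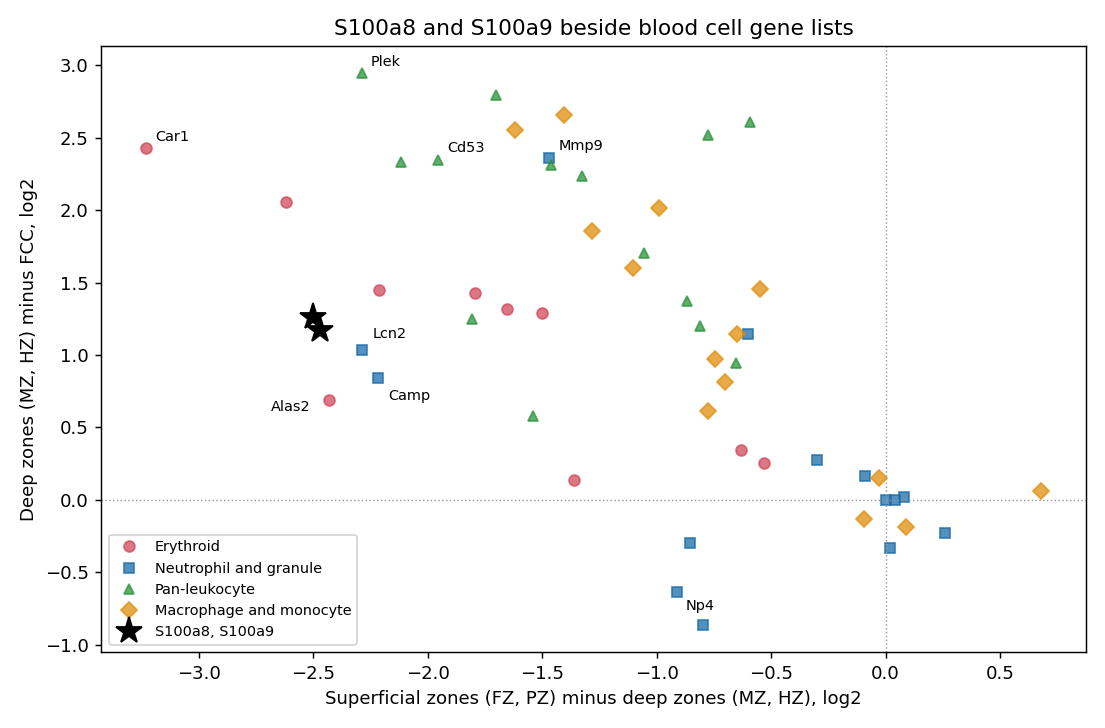
Each point is a gene, with superficial minus deep zones on the x axis and deep zones minus FCC on the y axis, both in log2, for 4 blood cell lists and for S100a8 and S100a9 (stars). The stars lie beside Lcn2, Camp and Alas2, and below pan-leukocyte genes with a like superficial minus deep difference such as Plek.

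The contrast of the classes was formed on each array as the mean of S100a1 and S100b minus the mean of S100a8 and S100a9. It was 1.403 in FZ and 1.64 in PZ, against -1.56 in MZ and -2.11 in HZ, and it was 1.46 in FCC. Only differences between these values have a meaning, since each gene is relative to its own median. The superficial zones lay 3.36 above the deep zones, FZ was 0.06 below FCC and PZ 0.18 above it, and the difference from FCC was -3.02 in MZ and -3.57 in HZ. FZ, PZ and FCC were therefore close on this scale although their parts were not. The chondrocyte mean was 0.62 in FZ and -0.12 in PZ, against 1.46 in FCC, and the neutrophil mean was -0.78 in FZ and -1.76 in PZ, against 0.00 in FCC.

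The contrast kept its direction between superficial and deep zones for each pair of single genes. Most of its size came from the neutrophil members, whose own differences were -2.50 (S100a8) and -2.47 (S100a9). Those of the chondrocyte members were 0.24 for S100a1 and 1.51 for S100b. S100a8 and S100a9 had nearly the same profile, so the pairs are not independent. S100b alone gave 4.01 against S100a8 and 3.98 against S100a9, and S100a1 alone gave 2.74 and 2.71. For FCC the choice of gene mattered more. S100a1 minus S100a8 was higher in FZ than in FCC by 0.92, whereas S100b minus S100a8 was lower in FZ than in FCC by 1.12. A shift of a whole array moves both sides of the contrast alike, so scaling left all of its values as they were.

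**Figure D4:**
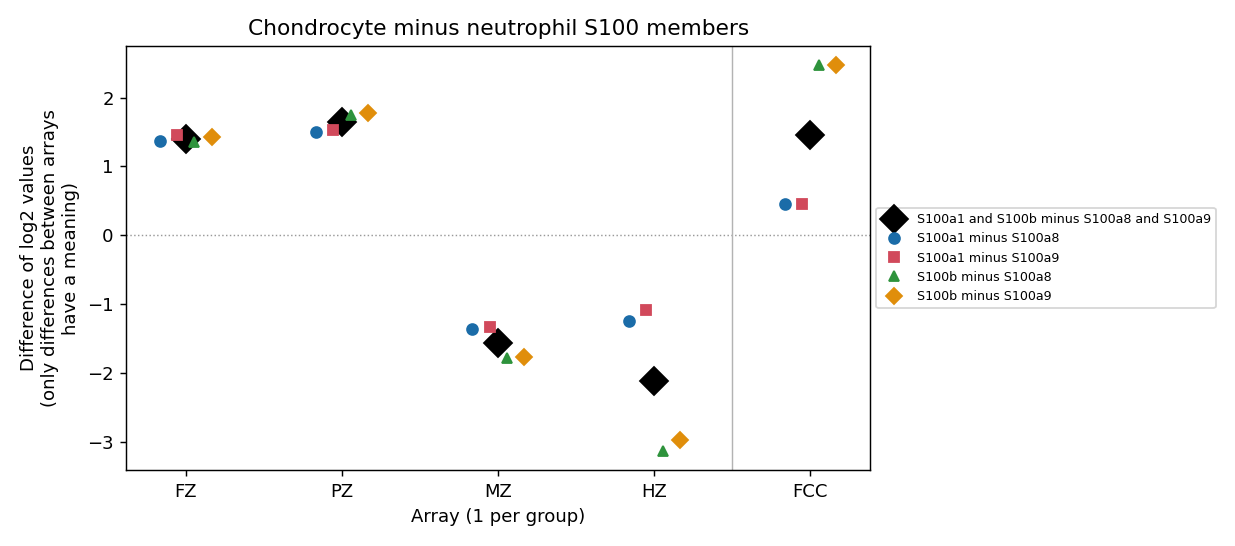
The mean of S100a1 and S100b minus the mean of S100a8 and S100a9 on each array (black diamonds), with the 4 contrasts of single genes, in log2. FZ and PZ lie above 1 and MZ and HZ below -1 for every choice of genes, and in FCC the contrasts with S100b lie about 2 above those with S100a1.

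All 5 widely expressed members were highest in FZ. S100a1 was the sixth member highest there, so that FZ was the highest array for 6 of 9 members, against 13.3% of all probe sets. For S100a1 FZ exceeded FCC by 0.18 only, within the spread between probe sets (0.26), so its place is not firm. S100a6 (calcyclin, made in dividing fibroblasts) had the widest spread of the 5 and lay at 1.91 in FZ and 0.85 in PZ, with -0.03 in MZ and -0.57 in HZ, against 0.00 in FCC. It was 3.76-fold higher in FZ than in FCC and 5.59-fold higher in FZ than in HZ, and it was 1.68 higher in the superficial than in the deep zones. S100a4, known for its part in cell motility and its binding of non-muscle myosin, was at 1.05 in FZ and 0.47 in PZ, with 0.00 in MZ and -0.10 in HZ, against -0.53 in FCC. S100a10, the partner of annexin A2, was at 0.71 in FZ and 0.12 in PZ, with 0.00 in MZ and -0.20 in HZ, against -0.40 in FCC. Both S100a4 and S100a10 were highest in FZ, and S100a4 was lowest in FCC. S100a10 had its lowest value in FCC too, but HZ minus FCC was 0.20, within the spread between probe sets (0.30). After the shift by hybridization controls it was 0.73. The order of PZ, MZ and HZ was not firm either. For S100a4 MZ and HZ differed by 0.10, less than the spread between probe sets, and PZ minus MZ was 0.47 but 0.01 after the shift by hybridization controls. For S100a10 PZ minus MZ was 0.12, within the spread between probe sets (0.31), and -0.34 after that shift. RefSeq lists a pseudogene of S100a10, and pseudogenes and near copies of S100a11, so that signal shared with such copies cannot be told apart from that of the named gene.

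S100a6 and S100b were the 2 of 9 members counted in FZ minus HZ, at 2.48 and 2.50, where 1.25% of all probe sets were counted. For FZ minus FCC 6 of 9 members differed by at least 1, against a background of 9.69%. S100a4, S100a6, S100a10, S100a11 and S100a13 were higher in FZ and S100b was lower. Between MZ and HZ no member reached a difference of 2, where 0.158% of all probe sets did, and S100b reached 1, where 1.13% did.

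Most genes of tendon and fibrous tissue had the same division between superficial and deep zones as S100a6. Of 19 measured genes 13 were higher in the superficial zones by at least 1 and none was lower by this size, with a median of 1.90. Of all named genes 2.24% were higher by at least 1. The list was chosen with earlier results of these data known. Its 8 genes that were higher by at least 2 were Tnmd, Dpt, Aspn, Col14a1, Mfap5, Mfap4, Igfbp6 and Crabp1. All of them are among the strongest zone differences that the study reported from the same arrays, so the share is a description. Col1a1 (-0.74), Dcn (-0.45) and Col1a2 (-0.22) were lower in the superficial zones, and Lum and Pi16 spanned less than 0.5 over the arrays. Tnmd (tenomodulin) lay at 5.29 in FZ and 2.86 in PZ, against -0.37 in MZ and -0.35 in HZ. Crabp1, which binds retinoic acid, was 4.98 and Dpt (dermatopontin) 4.79 higher in the superficial zones. The difference of S100a6, 1.68, was below that median, and those of S100a4 (0.81) and S100a10 (0.51) were smaller still.

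S100a11 and S100a13 departed from the other 3 widely expressed members most in PZ. They also differed from S100a6 elsewhere, with FZ minus HZ at 0.81 for both against 2.48 for S100a6. S100a11, which binds annexin A1, was at 0.81 in FZ and -1.59 in PZ, with 0.29 in MZ and 0.00 in HZ, against -0.30 in FCC. S100a13, which takes part in the release of Fgf1 and Il1a from cells, was at 0.81 in FZ and -1.10 in PZ, with 0.04 in MZ and 0.00 in HZ, against -0.46 in FCC. FZ minus PZ was 2.40 for S100a11, the 54th highest of all probe sets, and 1.91 for S100a13. S100a11 was the 1 of 9 members counted in this comparison at a threshold of 2, against 0.609% of all probe sets. For PZ minus FCC 5 of 9 members differed by at least 1 (S100a4 higher, and S100a8, S100a9, S100a11 and S100b lower), against 12.6% of all probe sets.

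PZ was the lowest of the 5 arrays for 5 of 9 members (S100a1, S100a8, S100a9, S100a11 and S100a13), and it was the lowest for 19.8% of all probe sets. For S100a1 PZ minus MZ was -0.16, within the spread between probe sets (0.31), so its place is not firm. The 3' probe set of GAPDH, at -1.46 in PZ, was low on this array too. Without PZ the 2 counts of S100b against FCC in MZ and HZ and the 4 counts among FZ, MZ and HZ were left.

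The other S100 genes differed little. Of 8 measured genes none differed by 1 between superficial and deep zones, and their median was 0.09. S100a3 was the exception against FCC, at 0.06 in FZ and 0.27 in PZ, with -0.07 in MZ and 0.00 in HZ, against -1.51 in FCC, so that every MCC zone was higher by at least 1.44. S100a16 was low in PZ (-0.76) and in FCC (-0.56). S100a5 was at 0.46 in FZ and 0.34 in PZ, against -0.26 in FCC, and S100a14 had its highest value, 0.43, in PZ. S100g, S100a7l2 and S100vp spanned less than 0.5 over the 5 arrays. The 2 probe sets of S100pbp, a gene for an S100P-binding protein, disagreed in FCC, at 0.75 and -0.40, and no order is given for it.

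The S100 genes of the array were also read in their order along the genome. In the RefSeq annotation (GRCr8) 8 of the 9 members lie on chromosome 2 and S100b lies on chromosome 20. Of the S100 genes measured, the order on chromosome 2 is S100a1, S100a13, S100a14, S100a16, S100a3, S100a4, S100a5, S100a6, S100a8, S100a9, S100a7l2, S100vp, S100a11 and S100a10, with 55 other protein-coding genes between S100vp and S100a11. Likeness was measured as the root mean square difference of 2 profiles over the 5 arrays, each relative to its own mean. The neighbours S100a8 and S100a9, with no protein-coding gene between them, were the closest of all pairs of S100 genes, at 0.05, whereas the 36 pairs of members had a median of 1.09. S100g and S100vp, on chromosomes X and 2, were nearly as close, at 0.06. Each of these 2 genes spanned less than 0.5 over the arrays, and flat profiles are close by this measure wherever the genes lie. S100a6 and S100a8, with 1 protein-coding gene between them, differed by 1.89. S100a1 and S100a13, also neighbours, differed by 0.49, and S100a11 and S100a10 by 0.76. S100a4 was closer to S100a10 (0.19), on the far side of the 55 genes, than to its neighbour S100a5 (0.28), and S100a11 was closer to S100a13 (0.26) than to S100a10.

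**Figure D5:**
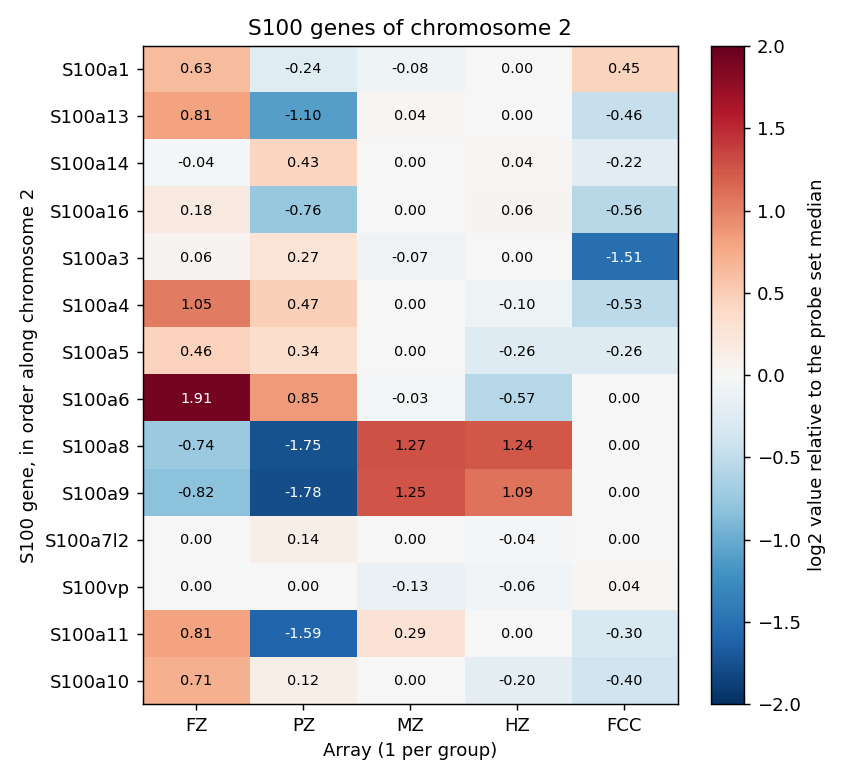
Values of the 14 S100 genes of chromosome 2 in their order along it (rows) on the 5 arrays (columns), as log2 relative to the median of each probe set. S100a8 and S100a9 form a block that is low in FZ and PZ and high in MZ and HZ, and S100a3 to S100a6 on one side of it and S100a7l2 and S100vp on the other lack this pattern.

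The genes with profiles most like those of 4 members were sought among named genes with a range of at least 2, by the same measure over the 5 arrays. S100b was closest to Dbp (0.29), a circadian transcription factor, Bnip3 (0.34), a mitophagy receptor, Rarres2 (0.38), which encodes chemerin, Nt5e (0.39), an ectonucleotidase, and the non-coding Lnc215 (0.41). Dbp lay at 0.30 in FZ and 0.00 in PZ, with -1.02 in MZ and -1.53 in HZ, against 2.37 in FCC. S100a8 was closest to S100a9, then to Camp (0.21), the lipoxygenase gene Alox15 (0.27), the haematopoietic transcription factor gene Nfe2 (0.30) and Lcn2 (0.32). S100a9 had Camp (0.18), Alox15 (0.26), Alas2 (0.34) and Lcn2 (0.34) after S100a8. For S100a1 the genes found were Dctd, Igfbp7, Mapk1ip1, Zfp74 and Ankmy2 at 0.48 to 0.50. Its own range was 0.88 and theirs had to be at least 2, so that these distances are set in part by the filter. Without the filter S100vp (0.31), S100g (0.35), S100a7l2 (0.37) and S100a16 (0.41) were the closest S100 genes. S100a10 was the closest member, at 0.41. S100vp, S100g and S100a7l2 each spanned less than 0.5 over the arrays.

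Binding partners and receptors of S100 proteins were measured as well. Of 32 measured genes none differed by 1 or more between superficial and deep zones, with a median of 0.09. Against FCC 3 were higher and 1 lower by at least 1 in FZ, 1 higher and 3 lower in PZ, 1 higher and 1 lower in MZ, and 2 higher and 2 lower in HZ. With at most 3 genes of 32 in a direction, these counts were near those over all named genes, of which 5.69% were higher and 4.21% lower in FZ. For PZ 4.65% were higher and 7.49% lower, for MZ 6.98% higher and 4.74% lower, and for HZ 8.09% higher and 5.98% lower. Among the receptors, Ager lay between -0.28 and 0.20 over the arrays, and Tlr4 was at 0.45 in FZ and 0.00 in PZ, with 0.18 in MZ and -0.15 in HZ, against -0.20 in FCC. Cd36, which binds the calprotectin complex with fatty acids, lay between -0.11 and 0.30, and Bsg between -0.46 and 0.03. Cybb, the catalytic subunit of the phagocyte oxidase to which calprotectin delivers arachidonic acid, was at 0.00 in FZ and -0.31 in PZ, against 0.44 in MZ and 0.68 in HZ, and -0.43 in FCC.

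The annexins, which dimers of S100a10, S100a11 and S100a6 bind, were highest in FZ with 1 exception, and FZ was the highest array for 13.3% of all probe sets. Anxa1 was at 0.98 in FZ and -0.46 in PZ, with 0.00 in MZ and -0.21 in HZ, against 0.29 in FCC, Anxa2 was at 0.49 in FZ and -0.17 in PZ, with 0.21 in MZ and -0.21 in HZ, against -0.25 in FCC, and Anxa5 was at 0.90 in FZ. The exception, Anxa11, was highest in FCC (0.35), but its FZ minus FCC was -0.19, within the spread between probe sets (0.26), so its place is not firm. Anxa6 was lowest in PZ (-1.51 in PZ, 0.36 in FZ), as were Myh9, the heavy chain of non-muscle myosin that S100a4 binds (-1.59 in PZ, 0.26 in FZ), and Plat, the plasminogen activator (-1.78 in PZ, 0.53 in FZ). Myh10, another non-muscle myosin chain, was 0.98 higher in the superficial than in the deep zones. Of the filament proteins, Gfap was at -0.61 in FZ and -0.24 in PZ, with 0.00 in MZ and 0.10 in HZ, against 1.79 in FCC, and Vim was higher in FZ than in FCC by 1.201. Mia3 was highest in PZ and lowest in FCC, at 1.02 in PZ and -1.04 in FCC, and Fgf1 and Il1a, cargoes of S100a13, each spanned less than 0.6. The remaining 14 partners, Cacybp, Sugt1, Ppp5c, Stk38, Capzb, Syt1, Trpv5, Trpv6, Scn10a, Kcnk3, Ryr1, Pygm, Pgm1 and Mdm2, differed by less than 0.5 between superficial and deep zones.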

How the data were processed

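RNA of laser-captured cells went through 2 cycles of linear amplification and onto 5 Affymetrix rat arrays. The authors deposited log2 values after RMA and quantile normalization, less the median that a probe set had on the 5 arrays. Background correction by MAS5 is described in the methods as well. The submitters' notes name MAS5 and RMA without versions. Because each probe set was centred, the values hold differences but no levels or depth, and the number of arrays limits the precision.

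From these values, log2 differences between arrays were computed in Python 3.11.15 (pandas 2.3.3, numpy 2.4.6) and plotted in matplotlib 3.10.9. From 31099 probe sets, 57 controls were set aside. Symbols came from the platform annotation, under which 20826 probe sets had 1 symbol, and a gene's value was the mean of its probe sets. RefSeq tables (GRCr8) served for names, gene order and promoter windows, and the build behind the array annotation was not given in the sources used. Functions were tested on simulated data.

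The members and the 17 gene lists were chosen with earlier results of these data known. Named were all members, all measured genes of the lists of other S100 genes, binding partners and SOX factors, genes of each cell type list with a large superficial minus deep difference, and the 5 nearest genes of 4 members. Other genes named, the order of S100b, the array that was highest or lowest and the place of FCC were chosen after their values were seen. Lists of hypertrophic chondrocyte and adipocyte genes were also computed, with median superficial minus deep differences of -0.79 and -0.11.

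Alternatives were centring arrays on their medians, a shift to equal means of 18 hybridization controls, 1 probe set per gene, thresholds of 1 and 1.4, FZ alone for the superficial zones, single genes in the contrast and the largest difference in place of the root mean square. Leaving out PZ was added after seeing the data.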

Additional observations from a re-analysis of the deposited data

How the results depend on the processing

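Centring each array on its median left every count of members as it was. Taking 1 probe set per gene could change nothing for the members, since each has 1 probe set. The contrast could not change under any shift of a whole array. The shift by hybridization controls put the median of all probe sets at 0.65 for FZ minus FCC (0.00 as deposited) and at 0.54 for FZ minus PZ (-0.05 as deposited). Under it, 5 in place of 3 of the 36 member differences from FCC reached 2, since S100a4 (2.22) and S100a6 (2.56) were then counted in FZ. Of 99 member differences 4 changed sign, the largest of which was 0.45 in size before the shift, and 8 changed their side of the threshold. With a threshold of 1.4, 8 of 36 differences from FCC, 17 of 54 differences between zones (9 at 2) and 4 members between superficial and deep zones were counted, and with a threshold of 1 these were 17, 25 and 4. Without PZ, 4 differences between zones were counted.

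With FZ alone as the superficial zone 2 members were again counted, S100a8 and S100a6 (2.21) in place of S100a8 and S100a9, and the contrast was 3.24. It was 2.74 and 2.71 with S100a1 alone against S100a8 and S100a9, and 4.01 and 3.98 with S100b alone. Ranked by the largest difference, 3 of the 5 genes nearest to S100b, 4 of 5 each of those nearest to S100a8 and S100a9, and 2 of those nearest to S100a1 were kept. No paired analysis was possible because each group has 1 array and no test was made. Depth is unknown, and signal over background is not in the values used here.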

Other observations

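Hypertrophy genes of chondrocytes were also measured in the zones in which the S100 members differed. Of 13 measured genes 6 were lower in the superficial than in the deep zones by at least 1 and none was higher by this size. Of all named genes 3.78% were lower and 2.24% higher by this size. Col10a1, the collagen of hypertrophic cartilage, was at -2.73 in FZ and -1.61 in PZ, against 0.62 in MZ and 0.37 in HZ, and 0.00 in FCC, so that FCC lay between the superficial and deep zones as it did for S100a8 and S100a9. Spp1 was 2.14 and Panx3 1.64 lower in the superficial zones. The adipocyte list held 1 gene with a difference of this size, Cfd, which was 2.10 lower in the superficial zones, whereas Fabp4 was 0.35 lower and Lep 0.21 higher.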
